A study of Mus musculus with 12 samples.

Results

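The genes described here code for Hmgcs1, Fdps, Fdft1, Sqle, Lss and Cyp51, which are enzymes of cholesterol synthesis, and for Insig1, a protein that holds the pathway back when sterol is plentiful. They were chosen by symbol from a list of 8 members, with earlier results of these data known. The gene column of the scanner output holds accessions and no symbols, so each accession was named through RefSeq, and 7 of the 8 members matched, with 13 of the 41174 probes on the array. Idi1 matched no probe and was not analysed here. The list was titled synthesis and uptake, but no matched member is an uptake gene, and the genes are therefore called cholesterol synthesis genes. Named probes covered 15972 genes in all. Mouse TM3 is a Leydig cell line that came from the testis of immature Balb/c mice. Its cells were exposed to 1 mM or 5 mM methoxyacetic acid (MAA), the active metabolite of the solvent ethylene glycol monomethyl ether, for 3, 8 or 24 h. The controls of each time were kept in culture medium alone. Each of the 6 conditions was compared with its control on 2 two-colour Agilent arrays, each hybridized with RNA pooled from 3 cultures, and the dyes were exchanged between the pair. The second array of a condition used a separate pool of MAA-treated cultures. Whether the 1 mM and 5 mM arrays of a time shared control cultures is not given in the sources used here, so comparisons of the concentrations may share controls. P-values of the ratios measure the spread between arrays of one cell line, which holds that of pools, dye and slide, and not the spread between animals. Whether the 2 arrays of a condition used separate control pools is not given either.

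Cholesterol is built from acetyl-CoA through mevalonate. Hmgcs1 acts at the entry of the pathway, Fdps makes farnesyl diphosphate, Fdft1 joins farnesyl units into squalene, Sqle oxidizes squalene, Lss closes its rings to form lanosterol, and Cyp51 removes a methyl group from lanosterol. The genes are turned on together by SREBP transcription factors, which Scap carries to the Golgi for cleavage when sterol is scarce. Insig1 retains Scap in the endoplasmic reticulum and is itself an SREBP target. Leydig cells use cholesterol as the precursor of testosterone.

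The promoters are shown first because the genes are known to share control through sterol regulatory elements. RefSeq sequences (build GRCm38.p6) of the 250 bases before the transcription start were at hand for 4 of the 7 genes, Hmgcs1, Lss, Cyp51 and Insig1. Sqle, Fdps and Fdft1 had no entry. Both strands were searched for the core of the sterol regulatory element (CACNCCAC), the CCAAT box (CCAAT) and the GC box (GGGCGG), none of which overlap each other in these windows. Each printed run goes from just before the first match to just after the last. Capitals mark the matches, and a match on the other strand appears as its reverse complement.
Hmgcs1 promoter, chr13:119690109-119690337, plus strand: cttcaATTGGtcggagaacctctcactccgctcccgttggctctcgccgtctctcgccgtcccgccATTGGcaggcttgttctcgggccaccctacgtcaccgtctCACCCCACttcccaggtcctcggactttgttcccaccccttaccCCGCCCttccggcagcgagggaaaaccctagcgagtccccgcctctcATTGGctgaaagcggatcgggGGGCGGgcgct
Insig1 promoter, chr5:28071178-28071411, plus strand: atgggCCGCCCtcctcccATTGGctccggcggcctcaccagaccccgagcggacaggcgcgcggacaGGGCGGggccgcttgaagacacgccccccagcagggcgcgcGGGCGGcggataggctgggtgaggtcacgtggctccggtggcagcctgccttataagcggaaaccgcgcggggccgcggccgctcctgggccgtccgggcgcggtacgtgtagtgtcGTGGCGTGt
Lss promoter, chr10:76531434-76531552, plus strand: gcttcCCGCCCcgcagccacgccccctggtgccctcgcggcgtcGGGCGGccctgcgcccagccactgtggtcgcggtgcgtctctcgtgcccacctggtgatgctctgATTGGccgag
Cyp51 promoter, chr5:4104717-4104837, minus strand: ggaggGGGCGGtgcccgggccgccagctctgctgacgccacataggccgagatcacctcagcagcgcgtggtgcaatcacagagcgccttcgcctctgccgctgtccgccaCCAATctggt
The sterol element core was found once each in Hmgcs1, 136 bases before the start, and in Insig1, in reverse and 9 bases before the start. It was not found in the windows of Lss and Cyp51. Only exact matches of this core were searched for, so sterol elements with other letters would have been missed. Among all 32851 promoters of the table, 5.29% held this core within the same 250 bases. A CCAAT box was present in each of the 4 windows, with 3 copies in Hmgcs1, against 33.8% of all promoters. A GC box was likewise present in each of the 4, against 32.7% of all promoters. These are matches of letters and not measurements of binding.

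Between 61.6% and 70.6% of probes had a control-channel signal well above background, and between 62.2% and 69.3% an MAA-channel signal, and the median log2 ratio of all probes lay between -0.13 and 0.15 on the 12 arrays. Of 9 Leydig cell markers, Star, Cyp17a1 and Insl3 were well above background in the control channel on 12 of 12 arrays and Nr5a1 on 8 of 12. Cyp11a1, Hsd3b1, Hsd3b6 and Lhcgr were well above background in the control channel of 0 arrays and Hsd17b3 of 1, so a full set of steroidogenic markers was not detected in these cells. The peritubular and fibroblast markers Acta2, Col1a1, Col1a2 and Pdgfrb were well above background on 12 of 12 control channels, as were the Sertoli cell markers Sox9, Rhox5 and Gata1, the germ cell markers Ddx4, Tnp1 and Prm1 and the macrophage marker Cd14. The remaining markers of these lists were mostly not detected, so none of the lists was detected in full. Myh11, Sycp3 and Ptprc were well above background on 5 of 12 control channels, Amh and Fshr on 2, Dazl on 1, and Cldn11 and Adgre1 on 0. Cd68 and Csf1r matched no probe.

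For each gene the probe with the highest mean signal was used, and its main-probe value is given unless stated. All 7 main probes were well above background in both channels of 12 arrays, and none was saturated. Values are log2 MAA/control ratios, and array signals of different probes are not compared as levels of their genes. A gene was called, by the study's thresholds, at an unadjusted limma p under 0.005 together with a change that exceeded 2-fold for 5 mM arrays and 1.5-fold for 1 mM arrays. A second rule, a Benjamini-Hochberg adjusted p under 0.05 over all probes with no fold threshold, is given beside it.

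At 5 mM MAA, the ratios of 6 of the 7 genes were lowered at 8 h, and those of most were back near 0 at 24 h. By the adjusted p, 6 of 7 fell at 8 h, when 15% of all probes were lower by that rule, and 0 of 7 rose, against 15.4% of all probes. By the study's thresholds 1 of 7, Insig1, was called lower, against 2.49% of all probes, and 0 higher, against 3.06%. At an unadjusted p under 0.05, 0 of 7 were higher too, against 19.3% of all probes. The median log2 ratio of the 7 genes was -0.60 and that of all probes was -0.04.

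Insig1 showed the lowest ratio of the 7 at 8 h, -1.14 on the first array and -1.12 on the second, a mean of -1.13 with a standard error of 0.06, or 2.19-fold lower (limma, adjusted p = 2.29e-05). The arrays differed by far less than the distance of either from 0. Its second probe read -0.93 and -0.80, which did not reach 2-fold, with an adjusted p of 0.000475.

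Cyp51, the lanosterol demethylase, stood at -0.99 and -0.85 at 8 h, 1.89-fold lower, with an adjusted limma p of 5.24e-05. Both other probes of Cyp51 gave the same picture, at -0.93 and -0.96 for one and -0.91 and -0.80 for the other. Hmgcs1, at the entry of the pathway, stood at -0.72 and -0.71, 1.64-fold lower with an adjusted p of 0.000222 by limma, and its second probe at -0.64 and -0.51. Ratios of these genes were below 0 on both arrays and with every probe.

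Lss, which forms lanosterol, was 1.51-fold lower, with -0.71 and -0.48 on the pair of arrays (limma, adjusted p = 0.00156), and its second probe read -0.62 and -0.39. Fdps, the farnesyl diphosphate synthase, was 1.39-fold lower, at -0.52 and -0.42 (limma, adjusted p = 0.000716). For Fdft1, the squalene synthase, the values were -0.38 and -0.25, 1.24-fold lower with an adjusted p of 0.0121 by limma. The Fdft1 call was lost without the first 8 h array at 5 mM (adjusted p = 0.156). The second Fdft1 probe was well above background on only 7 of 12 control channels, and its mean at 8 h of -0.39 had an adjusted p of 0.275.

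Sqle, which oxidizes squalene, was the member that was not lowered. Its ratios at 8 h were 0.12 and 0.02, with a mean of 0.07 (95% interval from -0.09 to 0.24), an interval that lies above the values of each of the other members at that time.

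**Figure D1:**
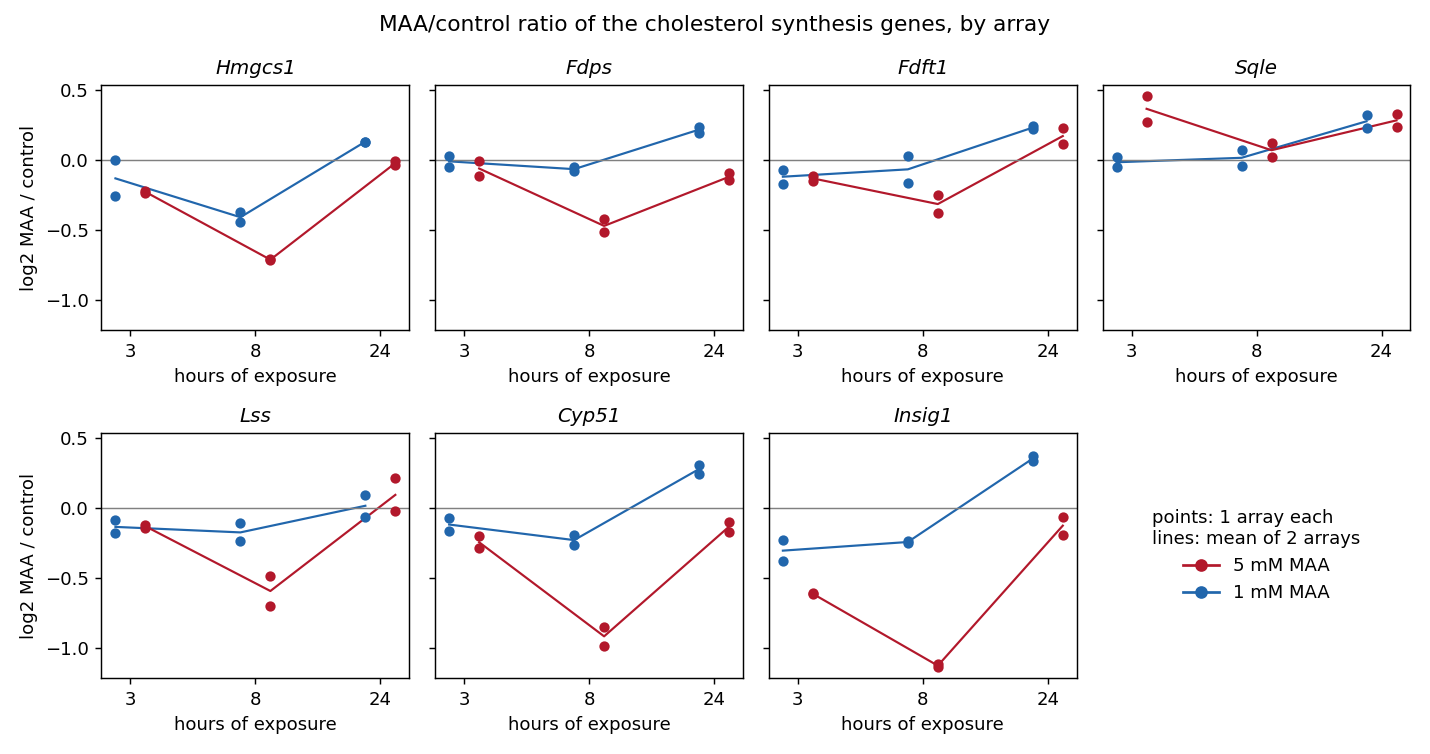
Log2 MAA/control ratio (vertical axis) for the main probe of each of the 7 genes after 3, 8 and 24 h (horizontal axis, equally spaced), with 1 point per array, red for 5 mM and blue for 1 mM MAA, and lines through the mean of the 2 arrays. At 5 mM the lowest point of 6 genes is at 8 h, from -0.31 for Fdft1 to -1.13 for Insig1, while Sqle lies above 0 at all 3 times.

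At 3 h the changes at 5 mM were smaller and fewer. Insig1 already stood at -0.62 and -0.61, 1.53-fold lower (limma, adjusted p = 0.000373). Cyp51 was at -0.20 and -0.29 (limma, adjusted p = 0.0267), a call that did not hold without either 3 h array at 5 mM (adjusted p = 0.085 without the first and 0.237 without the second). These were 2 of 7 genes that fell by the adjusted p, against 12.3% of all probes. In the other direction, Sqle rose, with 0.46 and 0.28, 1.29-fold higher (limma, adjusted p = 0.00718), 1 of 7 against 11.8% of all probes, and this call was lost without the first 3 h array (adjusted p = 0.1). Hmgcs1 had -0.22 and -0.24, with an adjusted p of 0.0515. The mean ratios of Fdps, Fdft1 and Lss were between -0.13 and -0.06. By the study's thresholds 0 of 7 were called in either direction at 3 h, when 1.74% of all probes were called lower and 2.02% higher, and 4 of 7 had an unadjusted limma p under 0.05, 3 lower, against 16.7%, and 1 higher, against 16.2%.

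At 24 h of 5 mM MAA, no member was called by the study's thresholds, against 1.77% of all probes called lower and 3.85% called higher. By the adjusted p, 0 of 7 fell, against 15.8% of all probes, and 1 of 7, Sqle, rose, against 14.6%. Sqle had 0.33 and 0.24 on its arrays (limma, adjusted p = 0.0184), a call lost without either 24 h array at 5 mM. The other 6 genes had mean ratios between -0.13 and 0.17, and the unadjusted p was under 0.05 for Fdft1 and Sqle, both higher, against 18% of all probes, and for 0 genes with a lower ratio, against 20.7%. Insig1 was at -0.19 and -0.06, Cyp51 at -0.10 and -0.17 and Hmgcs1 at 0.00 and -0.04, so the 3 genes that had been farthest from 0 at 8 h lay between -0.19 and 0.00.

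The difference between times was tested directly as contrasts of the 5 mM ratios. From 3 h to 8 h the ratios of 4 of 7 genes fell by the adjusted p, against 2.31% of all probes, namely Cyp51 by 0.67 (adjusted p = 0.0106), Insig1 by 0.51 (adjusted p = 0.0209), Hmgcs1 by 0.49 (adjusted p = 0.0367) and Fdps by 0.41 (adjusted p = 0.0365), all from limma. The changes of Lss, Sqle and Fdft1 over this interval were -0.46, -0.30 and -0.18, with adjusted p-values of 0.0831, 0.154 and 0.402. From 8 h to 24 h the ratios of 6 of 7 genes rose, against 4.6% of all probes. The rise was 1.00 for Insig1, 0.79 for Cyp51, 0.69 for Hmgcs1, 0.69 for Lss, 0.49 for Fdft1 and 0.35 for Fdps, with adjusted limma p-values from 0.00159 to 0.0419. Sqle changed by 0.21 (adjusted p = 0.274). Between 3 h and 24 h 1 of 7 genes, Insig1, differed, with a rise of 0.49 (limma, adjusted p = 0.00981) against 8.39% of all probes that rose.

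These counts were lower under several alternatives. After each of the 12 arrays was centred on its median, 1 gene passed from 3 to 8 h, 2 from 8 to 24 h and 0 from 3 to 24 h. With only the 6 arrays at 5 mM, 0 of 7 genes passed in any of the 3 contrasts, and without 1 array the count from 3 h to 8 h was between 0 and 3 and that from 8 h to 24 h between 2 and 5. On the slide that held arrays of all 3 times at 5 mM, all 7 ratios were lower at 8 h than at 3 h, by 0.13 for Fdft1 at the least and 0.56 for Cyp51 at the most, and all 7 were higher at 24 h than at 8 h, by 0.22 for Sqle to 1.06 for Insig1.

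**Figure D2:**
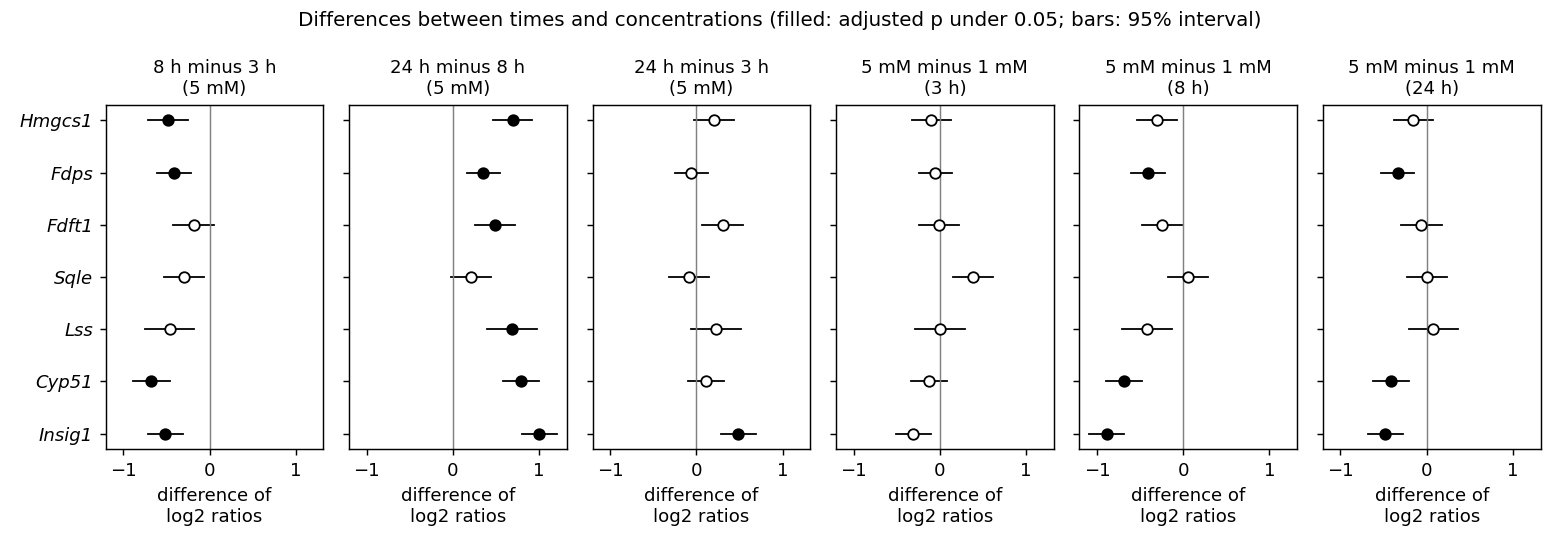
Differences of log2 ratios (horizontal axis) between times at 5 mM and between concentrations at each time for the main probe of the 7 genes (vertical axis), with 95% intervals from limma and filled points for adjusted p under 0.05. The 8 h minus 3 h differences are all below 0, from -0.67 to -0.18, and the 24 h minus 8 h differences all above 0, from 0.21 to 1.00.

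At 1 mM MAA the ratios were closer to 0 and no member was called by the study's thresholds at any time, when 0.627%, 0.656% and 1.41% of all probes were called lower and 1.32%, 1.72% and 3.26% higher at 3, 8 and 24 h. At 3 h Insig1, with -0.38 and -0.23, fell by the adjusted p (limma, adjusted p = 0.037), 1 of 7 against 1.91% of all probes, but the call was lost without any 1 of the 12 arrays. At 8 h Hmgcs1, with -0.37 and -0.45, fell 1.33-fold (limma, adjusted p = 0.0194), 1 of 7 against 2.13%, a call lost without either 8 h array at 1 mM. Cyp51 at -0.26 and -0.20 and Insig1 at -0.25 and -0.24 had adjusted p-values of 0.0887 and 0.0679. Unadjusted limma p-values under 0.05 were found for 1 gene at 3 h, against 8.29% of all probes, and for 3 genes at 8 h, against 9.19%, all with lower ratios.

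After 24 h at 1 mM the mean ratios of all 7 genes were above 0, with a median of 0.23, against -0.07 for all probes. By the adjusted p, 3 of 7 rose, against 6.66% of all probes, and by an unadjusted limma p under 0.05, 5 of 7, against 12.4%. With the scanner's log10 ratios, the deposited values, dim probes left out or replicate number as a block, 5 of 7 passed the adjusted p. Insig1 had 0.33 and 0.37 (limma, adjusted p = 0.0124), Cyp51 had 0.31 and 0.25 (adjusted p = 0.0325) and Sqle had 0.33 and 0.23 (adjusted p = 0.0451). Fdps, at 0.24 and 0.20, and Fdft1, at 0.22 and 0.24, had adjusted p-values of 0.0553 and 0.081, and Hmgcs1 was at 0.13 on both arrays. Lss was at -0.07 and 0.10. None of the 3 calls remained when either 24 h array at 1 mM was left out, when each array was centred on its median or when the 6 arrays at 1 mM were fitted alone.

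Between concentrations, 3 of 7 genes had lower ratios at 5 mM than at 1 mM after 8 h, against 5.27% of all probes. Insig1 was lower by a log2 difference of -0.89 (limma, adjusted p = 0.00219), Cyp51 by -0.69 (adjusted p = 0.0052) and Fdps by -0.41 (adjusted p = 0.0236). For Lss, Hmgcs1 and Fdft1 the differences were -0.42, -0.30 and -0.25, with adjusted p-values of 0.0786, 0.105 and 0.19, and for Sqle 0.05 (95% interval from -0.18 to 0.29). Each difference of these 6 genes had the same sign on both slides that held 8 h arrays of both concentrations. After 24 h the same 3 genes, Insig1, Cyp51 and Fdps, were lower at 5 mM, by differences of -0.48, -0.41 and -0.34 (limma, adjusted p = 0.0173, 0.0335 and 0.0494), against 4.37% of all probes. That count was 0 without any 1 of the 4 arrays taken at 24 h, 1 without either 8 h array at 1 mM, and 0 after centring each array. At 3 h, 0 of 7 genes differed by the adjusted limma p, against 1.89% of all probes that were lower and 1.51% that were higher. The unadjusted limma p was under 0.05 for Insig1, with a difference of -0.31, 1 of 7 against 8.41% of all probes, and for Sqle, with 0.38, 1 of 7 against 7.21%. With slide as a block, 1 gene passed by the adjusted p in this comparison, and 2 rather than 1 passed at 24 h of 5 mM, at 8 h of 1 mM and from 3 to 24 h of 5 mM.

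A ratio can move through either channel, so the channels were also put on one log2 scale by Aquantile normalization. In the control channel all 7 genes gained signal over time in culture medium alone. From 3 h to 8 h 6 of 7 rose by the adjusted limma p, against 6.84% of all probes, and from 3 h to 24 h 7 of 7, against 14.9%. The median increase of the 7 genes to 24 h was 1.01, or about 2-fold, where that of all probes was -0.07. Aquantile normalization gives all arrays the same distribution of mean signal, which holds the all-probe median near 0. The arrays of a time may share 1 control pool, so these p-values may not measure the spread between control cultures.

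Insig1 control signals lay between 11.77 and 11.87 on the 4 arrays at 3 h, between 12.38 and 12.44 at 8 h and between 13.14 and 13.17 at 24 h, an increase of 2.52-fold from 3 to 24 h (limma, adjusted p = 0.00702). Cyp51 lay between 13.29 and 13.46 at 3 h, between 13.84 and 13.92 at 8 h and between 14.42 and 14.55 at 24 h, 2.17-fold higher (adjusted p = 0.00744). Fdps lay between 14.36 and 14.43 at 3 h, at 14.87 or above at 8 h and between 15.49 and 15.61 at 24 h, 2.24-fold higher (adjusted p = 0.00702). In each of these genes the 3 times did not overlap.

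Lss rose 2.02-fold to 24 h (limma, adjusted p = 0.00821), with 1.29-fold at 8 h that did not pass (adjusted p = 0.0673). Fdft1 rose 1.98-fold, Sqle 1.87-fold and Hmgcs1 1.76-fold to 24 h (adjusted p = 0.00783, 0.0081 and 0.0113). At 8 h the increase of Hmgcs1 was 1.63-fold, with control signals between 15.21 and 15.37, and its 24 h signals of 15.36 to 15.43 overlapped with them.

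In the 5 mM channel the median change of the 7 genes between 3 and 8 h was 0.12, beside 0.55 in the control channel. The mean log2 signal of Insig1 was higher by 0.06 at 8 h than at 3 h, that of Fdps by 0.12, that of Sqle by 0.17, that of Hmgcs1 by 0.22 and that of Fdft1 by 0.44, and those of Cyp51 and Lss fell by 0.17 and 0.14. The lower 8 h ratios therefore stood beside a control signal that had increased. Of the genes with lower ratios, Insig1, Fdps, Hmgcs1 and Fdft1 had a mean treated signal not below that at 3 h, and Cyp51 and Lss had one below it. The treated signals of Insig1 overlapped, with 11.25 and 11.18 at 3 h and 11.24 and 11.31 at 8 h. From 8 to 24 h the 5 mM signals gained between 0.68 for Sqle and 1.75 for Insig1. At 1 mM the gain from 3 to 8 h was between 0.36 for Lss and 0.67 for Insig1. These steps of the MAA channel were not tested on their own, since the contrasts of the ratios are the test of whether the channels diverged.

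**Figure D3:**
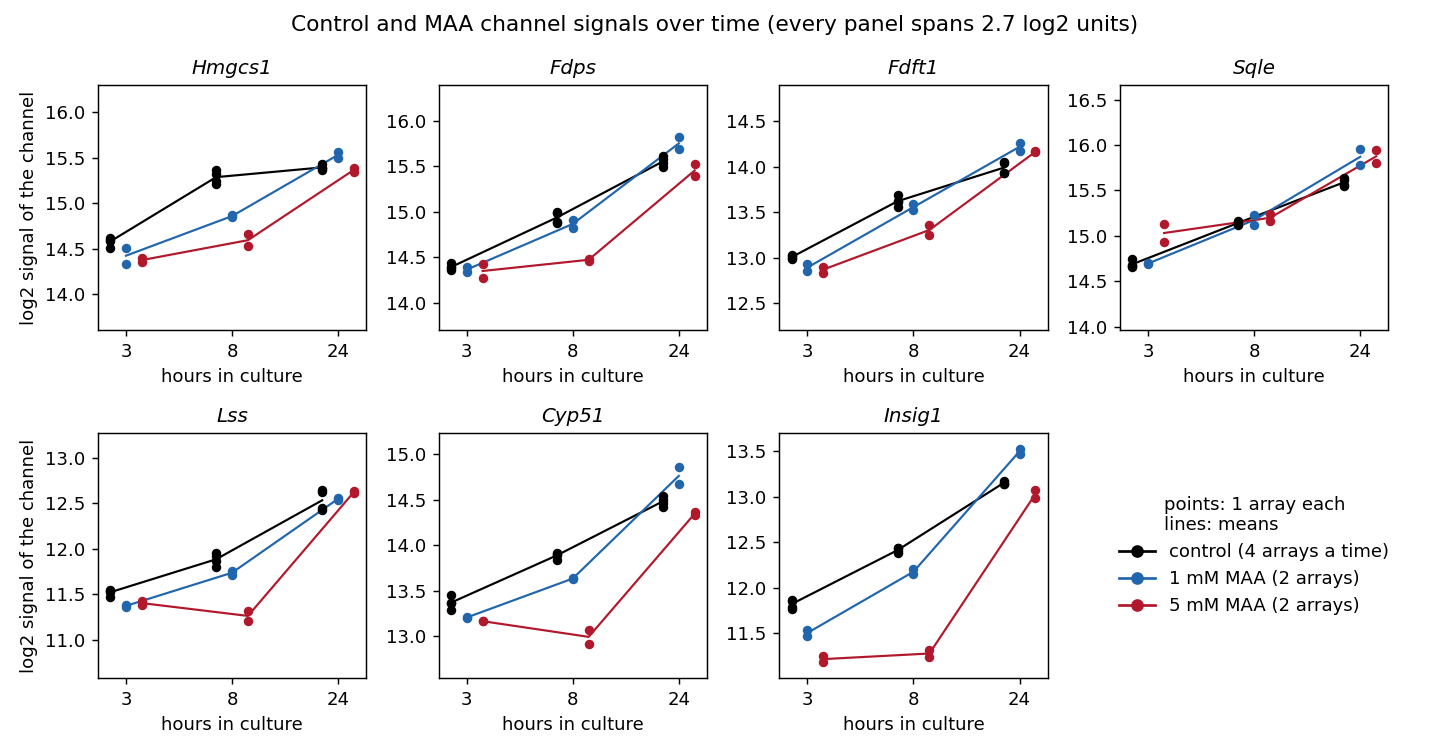
Log2 signal of the control channel (black, 4 arrays per time), the 1 mM channel (blue, 2 arrays) and the 5 mM channel (red, 2 arrays) after Aquantile normalization (vertical axis, 2.7 units in every panel) against time (horizontal axis), with 1 point per array and lines through the means. The axis label, hours in culture, stands for hours of MAA exposure or of the matched control. The control signal of Insig1 rises from about 11.8 to 12.4 and 13.2 while its 5 mM signal changes by 0.06 between 3 and 8 h and then gains 1.75.

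The rest of the sterol pathway was examined through lists of genes, each gene by its brightest probe. These lists were chosen with earlier results of these data known, so their counts are descriptive. Among 13 other sterol pathway enzymes, 6 fell by the adjusted p at 8 h of 5 mM MAA, against 15% of all probes, 0 rose, against 15.4%, and 11 had a ratio below 0, with a list median of -0.29. The 6 were Acat2 at -0.42, Mvk at -0.29, Mvd at -0.45, Msmo1 at -0.64, Nsdhl at -0.64 and Ebp at -0.34, the first ahead of Hmgcs1 in the pathway, Mvk and Mvd between Hmgcs1 and Fdps and the last 3 after Cyp51. They were chosen for mention after their values were seen. At 3 h, 3 of the 13 rose, against 11.8% of all probes, and 0 fell, against 12.3%. At 24 h 6 of the 13 were lower, against 15.8% of all probes, namely Acat2, Mvd, Msmo1, Nsdhl, Ebp and Tm7sf2. Mvk, at -0.25, did not pass at 24 h, and Tm7sf2, at -0.86 at 24 h, had stood at 0.32 at 8 h without passing. In the contrast of 24 h with 8 h 0 of the 13 rose, against 4.6% of all probes, and 1 fell, while 6 of the 7 genes had risen. This difference between the lists was not tested.

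In the control channel 11 of the 13 other enzymes rose from 3 to 24 h, against 14.9% of all probes, with a median of 1.04, beside 1.01 for the 7 genes.

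Of the proteins that control SREBP, 9 were measured, and Srebf2 matched no probe. Srebf1, which codes for SREBP-1, fell at 3 h of 5 mM MAA, with -0.58 and -0.48 (limma, adjusted p = 0.00112), was at -0.30 and -0.22 at 8 h (adjusted p = 0.0237) and at -0.01 and 0.08 at 24 h. Insig2, the relative of Insig1, moved the other way, at 0.24 and 0.17 at 8 h (adjusted p = 0.0355) and at 0.50 and 0.40 at 24 h (adjusted p = 0.00107). Scap, the carrier, was between -0.06 and 0.01 on average at the 3 times at 5 mM, and none of these values passed. At 1 mM and 24 h Scap fell, with -0.35 and -0.25 (limma, adjusted p = 0.0177).

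Cholesterol uptake and traffic genes were found on both sides of 0. Of 14 measured, 4 fell and 7 rose by the adjusted p at 8 h of 5 mM MAA, against 15% and 15.4% of all probes. By the study's thresholds 0 were called at any of the 6 conditions. Star, which moves cholesterol into mitochondria for steroid synthesis, was raised at 3 h, with 1.02 and 0.87 (limma, adjusted p = 0.00442), and at 8 h, with 0.97 and 0.32 (adjusted p = 0.0192). Its 24 h values were 0.28 and 0.10. Star and Insig1 thus stood on opposite sides of 0 on all 4 arrays at 3 and 8 h of 5 mM MAA.

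Among 8 genes of cholesterol efflux and of its LXR control, Abca1, the efflux transporter, rose at 3 h of 5 mM MAA, with 1.07 and 0.54 (limma, adjusted p = 0.00334), and had 0.17 and 0.20 at 8 h. Ch25h, which makes an oxysterol from cholesterol, was called higher at 8 and 24 h of 5 mM and at 24 h of 1 mM MAA. Its control channel was not well above background on any array of these conditions. The measured increase was 4.38-fold at 8 h and 3.78-fold at 24 h of 5 mM, and the increase at 1 mM was at least 3.31-fold. The adjusted p-values were 0.00292, 0.00508 and 0.0185 by limma. Its MAA channel was well above background on 1 of 2 arrays at 8 and at 24 h of 5 mM and on 2 of 2 at 1 mM. The bound at 1 mM sets the mean of the bright channel against the lowest signal that was well above background on each array, or the dim probe's own signal where that was higher. At 5 mM the control channel's own signal was the higher on each array, so the 5 mM values are the measured ratio of the channels and not bounds.

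Of 11 genes of fatty acid synthesis, which SREBP-1 also controls, 6 fell and 1 rose by the adjusted p at 8 h of 5 mM MAA, against 15% and 15.4% of all probes, with a list median of -0.32. The one that rose was Acss2, which makes acetyl-CoA from acetate. It stood at 0.88 and 0.64 at 3 h, at 1.52 and 1.65 at 8 h and at 1.77 and 1.92 at 24 h of 5 mM MAA (limma, adjusted p = 0.000559, 1.95e-05 and 1.41e-05), and was called by the study's thresholds at 8 and 24 h of both concentrations. Among 7 genes of the nonsterol branch of the mevalonate pathway, 2 fell and 0 rose at 8 h by the same rule and against the same shares of all probes, with a list median of -0.04, beside -0.04 for all probes.

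**Figure D4:**
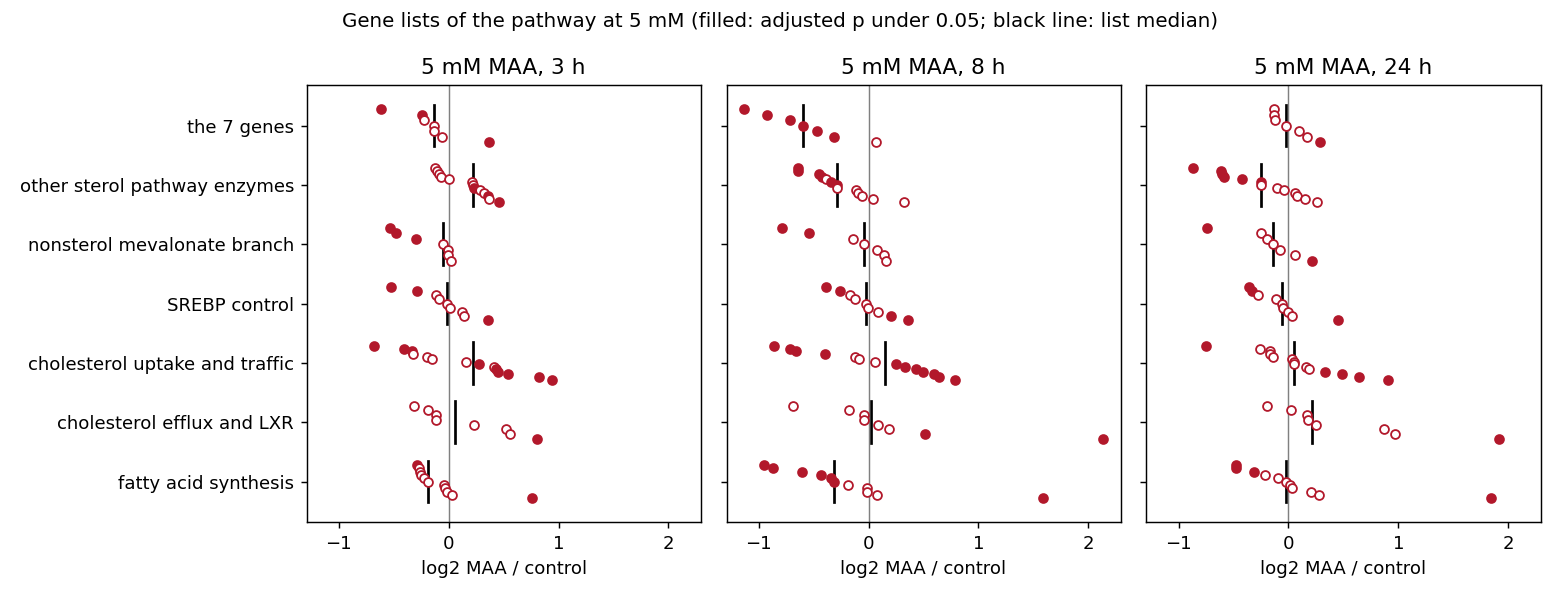
Log2 MAA/control ratio (horizontal axis) for the genes of 7 lists (vertical axis) at 3, 8 and 24 h of 5 mM MAA, with 1 point per gene, filled where the adjusted limma p was under 0.05, and a black line at each list's median. At 8 h the median is -0.60 for the 7 cholesterol synthesis genes, -0.29 for the other sterol enzymes and -0.32 for fatty acid synthesis, and at 24 h that of the 7 genes is -0.02.

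Marker genes of other cell types moved in the same samples. In log2 of the summed signal at 8 h of 5 mM MAA, the 5 peritubular and fibroblast markers were between 18.02 and 18.21 in the control channel and between 17.68 and 17.83 in the MAA channel, the 3 macrophage markers measured between 9.65 and 9.75 and between 8.17 and 8.26, and the 9 Leydig cell markers between 9.13 and 9.24 and between 8.87 and 8.92. The 6 Sertoli cell markers were between 8.37 and 8.47 in control and between 8.49 and 8.62 in MAA, and the 5 germ cell markers between 9.17 and 9.60 and between 9.27 and 9.37. Each sum follows its brightest probes. That of the macrophage markers was almost wholly Cd14, with a mean log2 signal of 9.22, beside 2.06 for Adgre1 and 1.39 for Ptprc. The ratios of Adgre1 and Ptprc at 8 h were between -0.05 and -0.03. The peritubular and fibroblast sum was mostly Col1a1 at 16.80 and Col1a2 at 16.68, beside 14.28 for Acta2. By the study's thresholds Cd14 was called lower at 8 and 24 h of 5 mM, Insl3 and Col1a2 lower and Cyp11a1 and Rhox5 higher at 24 h of 5 mM, Sox9 higher at 3 h of both concentrations, Gata1 higher at 24 h of 1 mM and Adgre1 higher at 24 h of both. The part of these shifts in the ratios of the cholesterol synthesis genes was not tested. TM3 is 1 cell line, so these markers do not count cells of several testis cell types. In such bulk RNA, fewer cells that express a marker and less of its RNA per cell cannot be told apart.

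The genes outside all lists with the profile most like the median of the 7 genes were Heg1, Capn6, Tmem98, Flcn and Cd99, whose root mean square difference from it over the 6 conditions was between 0.099 and 0.108, among 10527 genes with a signal well above background in at least 1 channel of each array. Heg1 stood at -0.71 at 8 h of 5 mM and 0.21 at 24 h of 1 mM MAA. Within the 7 genes the same measure was lowest for Fdps and Lss, at 0.10 each, and highest for Insig1 and Sqle, at 0.31 and 0.37. Of the listed genes outside the 7, Msmo1 was nearest, at 0.11.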

How the data were processed

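RNA of TM3 cells was measured on 12 two-colour Agilent arrays, 2 for each of 6 conditions, placed on 3 slides of 4. Spots were read by the authors with Agilent Feature Extraction 9.5.3.1, as the submitters' processing notes name it, and the deposited scanner files hold background-corrected, dye-normalized intensity values of both channels. In the value table deposited by the authors, log10 ratios stand as MAA over control on every array, and this table served only as an alternative. Depth does not apply to arrays, and the number of arrays limits the precision.

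From the processed intensities, log2 MAA/control was taken on each array, dye-swapped arrays were turned, control spots and outlier spots were left out, and spots of 1 probe were averaged. In 1 fit over all 12 arrays (R 4.3.3, limma 3.58.1) each condition had a coefficient, and contrasts compared times and concentrations. limma stands in for the error model of the study's software, which was not run, and its p thresholds and fold thresholds were kept. Adjusted p-values are Benjamini-Hochberg values from limma over all probes. The control channel was fitted after Aquantile normalization, with arrays of the same time and replicate number averaged first, since the sources used here do not say whether they share control pools, which left 2 values per time, and with dye as a term. Figures were drawn with matplotlib.

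Of the genes with several probes the brightest probe was used. The text names all members, Srebf1, Scap, Insig2, Star and Abca1, listed genes called in any condition, and the 5 unlisted genes with the most similar profile. Some genes that the rule names are not reported here. Genes of the other sterol enzyme list named beyond these were chosen after their values were seen. The members and lists were chosen with earlier results of these data known. Gene names came from RefSeq accessions, which named 22072 of 41174 probes. Columns of the authors' own log ratio errors and p-values in the scanner files were not used.

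In simulated data with the spread of these arrays, the 8 h comparison at 5 mM was tested by the adjusted p. It recovered 15.6% of changes of 0.6 log2 and 47.1% of changes of 1.2 log2. The contrast of 8 h with 3 h recovered 0% and 31.7%. Only 96 probes were changed by 0.6 log2 and 104 by 1.2 log2, among 41174. In the data, 15% of all probes were lower and 15.4% higher at 8 h of 5 mM MAA. The adjusted p is stricter when few probes change. These shares therefore do not give the chance of detecting such changes in the cholesterol synthesis genes. Alternatives were the scanner's log10 ratios, the deposited table, normexp with loess, median centring, leaving out dim probes, slide or replicate number as a block, the 6 arrays of 1 concentration alone, other probes, other thresholds and leaving out each array.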

Additional observations from a re-analysis of the deposited data

Results flagged for a closer look

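The effect of 5 mM MAA differed between times, by limma contrasts with an adjusted p under 0.05, in 6 of the 7 genes. The log2 ratio of 8 h minus that of 3 h was -0.49 for Hmgcs1, -0.41 for Fdps, -0.67 for Cyp51 and -0.51 for Insig1. The ratio of 24 h minus that of 8 h was 0.69 for Hmgcs1, 0.35 for Fdps, 0.49 for Fdft1, 0.69 for Lss, 0.79 for Cyp51 and 1.00 for Insig1. For Insig1 the ratio of 24 h minus that of 3 h was 0.49.

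The effect also differed between concentrations by the same test. At 8 h the ratio at 5 mM minus that at 1 mM was -0.41 for Fdps, -0.69 for Cyp51 and -0.89 for Insig1. At 24 h it was -0.34 for Fdps, -0.41 for Cyp51 and -0.48 for Insig1. Arrays of both concentrations at a time may share control cultures.

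In the control channel, the 4 arrays of each time were searched for a sample that lay apart from the others, by Dixon's test at its 95% critical value. None of 21 groups (7 genes at 3 times) held one, where chance alone marks about 1 in 20.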

How the results depend on the processing

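Member values with an adjusted p under 0.05 in the main analysis were followed, with contrasts and the control channel included. Of these values under the alternatives, 762 kept their direction and side of the threshold, 183 kept their direction but no longer passed, and 0 reversed. Some alternatives use nearly the same values, so these are not independent checks. The count of 6 genes that fell by the adjusted p at 8 h of 5 mM MAA stayed at 6 or 5 under each alternative run. Counting genes by the adjusted p in each condition under every alternative was added after seeing the data. Other counts are given in the order 5 mM at 3, 8 and 24 h and then 1 mM at 3, 8 and 24 h where all conditions are named. By the adjusted p with no fold threshold, 3, 6, 1, 1, 1 and 3 genes passed, in place of 0, 1, 0, 0, 0 and 0 by the study's thresholds. With 1.5-fold at both concentrations, 1 gene was called at 3 h and 4 at 8 h of 5 mM. With the second brightest probe of each gene, 0 were called at 8 h of 5 mM, and by the adjusted p 0, 0 and 1 passed at 3, 8 and 24 h of 1 mM, 2 in the contrast of 8 h with 3 h, 0 in that of 24 h with 3 h and 1 in that of concentrations at 24 h.

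After centring each array on its median, which moved values by at most 0.15, 0 genes passed at 24 h of 5 mM and at 3, 8 and 24 h of 1 mM, 1 from 3 to 8 h, 2 from 8 to 24 h, 0 from 3 to 24 h and 0 between concentrations at 24 h. With only the 6 arrays of a concentration, 1 and 0 passed at 3 and 24 h of 5 mM, 0 at each time of 1 mM and 0 in each contrast of times. The scanner's log10 ratios and the deposited value table both gave 2 genes at 24 h of 5 mM, 3 and 5 at 8 and 24 h of 1 mM, 2 from 3 to 24 h, and 2 and 5 between concentrations at 3 and 8 h. Without dim probes (29051 tested) the counts were 3 and 5 at 8 and 24 h of 1 mM, 2 from 3 to 24 h, and 2 and 5 between concentrations at 3 and 8 h. Normexp with loess gave 2 at 24 h of 5 mM, 3 at 8 h of 1 mM, 2 from 3 to 24 h and 5 between concentrations at 8 h. Slide as a block gave 2 at 24 h of 5 mM, 2 at 8 h of 1 mM, 2 from 3 to 24 h and 1 between concentrations at 3 h. The causes were not tested.

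Replicate number equals dye orientation. Deviations of same-numbered arrays correlated between -0.18 and 0.76, over 0.1 in 11 of 15 pairs. The labels do not say that a number marks a shared batch. The main fit of the ratios held no term for replicate number or dye, so an effect shared by same-numbered arrays stayed in its spread. With replicate number as a block, 2 genes passed at 24 h of 5 mM, 3 and 5 at 8 and 24 h of 1 mM, 2 from 3 to 24 h, and 2 and 5 between concentrations at 3 and 8 h. In the main fit these counts were 1, 1 and 3, 1, and 0 and 3, in the same order.

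Without 1 array in turn, the counts by the adjusted p ranged from 1 to 4, 5 to 6 and 0 to 1 at 3, 8 and 24 h of 5 mM and were 0, 0 to 1 and 0 to 3 at 1 mM. They ranged from 0 to 3 from 3 to 8 h, 2 to 5 from 8 to 24 h, 0 to 1 from 3 to 24 h, and were 0, 2 to 3 and 0 to 2 between concentrations at 3, 8 and 24 h. In the control channel they were 5 to 6 at 8 h and 7 at 24 h. By the study's thresholds 1 gene stayed called at 8 h of 5 mM and 0 elsewhere. When any array was left out other than the pair at 3 h of 1 mM, the count of genes moved by over 1.5 times. This held for the contrast of 8 h with 3 h. That of 24 h with 8 h gave 3 and 2 genes without the first and second 24 h array of 5 mM and 2 without the first 8 h array, and that of 24 h with 3 h gave 0 without the second 24 h array. At 24 h of 1 mM the adjusted count was 0 without either of its own arrays and 1 without either 8 h array of 1 mM or 24 h array of 5 mM, and at 3 h of 5 mM it was 1 without the first array.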
